A study of Mus musculus with 30 samples.

Results

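The genes described here encode CXC chemokines, secreted or membrane-anchored proteins that guide leukocytes through tissue. The 10 genes *Cxcl1*, *Cxcl2*, *Cxcl5*, *Cxcl9*, *Cxcl10*, *Cxcl11*, *Cxcl12*, *Cxcl13*, *Cxcl14* and *Cxcl16* were taken by name as the members of this family to be described in gut stroma, out of 32316 gene symbols counted. CXC chemokines bind G protein-coupled receptors on leukocytes, and the members fall into groups by the receptor they use. CXCL12 keeps CXCR4-bearing cells near stroma, CXCL13 gathers CXCR5-bearing B cells, CXCL16 is anchored in the membrane and binds CXCR6, CXCL9, CXCL10 and CXCL11 follow interferon signals and draw CXCR3-bearing T cells, and CXCL1, CXCL2 and CXCL5 draw neutrophils through CXCR2. In the gut, lamina propria fibroblasts (FB) and mural cells lie close to the epithelium and the vessels and are a known source of such signals.

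RNA from sorted mesenchymal cells of the mouse intestine was sequenced in bulk to compare the stromal subsets of small intestine (SI) and colon, in 10 populations with 3 libraries each. All mice were untreated C57BL6/Nrj animals of 8 to 10 weeks, and the 3 replicates of a population came from 3 separate sorts, with SI and colonic subsets taken from the same mice. Muscle layer and Peyer's patches were removed, and dead cells, lineage-positive leukocytes and cells with CD31, BP3, EpCAM or high NCAM were gated out. Pericytes were PDGFRα-ESAM-1+PDPN- in both tissues, and smooth muscle cells (SMC), sorted from SI alone, were PDGFRα-ESAM-1+PDPN+. All FB were ESAM-1-. In SI, CD34+ FB had intermediate PDGFRα with CD34, Fgfr2+ FB had intermediate PDGFRα without CD34, and PDGFRα hi FB had high PDGFRα without CD34. In colon, CD81+ FB had intermediate PDPN with CD34 and no CD90, CD90+ FB had high PDPN with CD34 and CD90, Fgfr2+ FB had high PDPN with CD34 and no CD90, and PDGFRα hi FB had PDPN without CD34. The gates of Fgfr2+ and PDGFRα hi FB therefore differ with the tissue, and gate and tissue cannot be told apart there. Cell isolation differed as well. Colon alone received dithiothreitol in the first incubation, and it was digested with a magnetic stirrer, SI with shaking. Isolation and tissue cannot be told apart in any comparison of SI with colon.

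Library totals ran from 2245052 to 19096945 estimated reads with a median of 9601683, and the lowest was replicate 3 of SI Fgfr2+ FB. Levels are given as CPM, the reads of a gene over a library total that was adjusted by the TMM factors of edgeR, for replicates 1, 2 and 3 in that order, and levels of different genes are compared per kilobase of effective transcript length. In bulk libraries fewer cells with a transcript and less of it in each cell cannot be told apart. A difference was called at an adjusted p below 0.05 with an absolute log2 fold change above 1.5, after testing all genes that passed a filter on low counts. In each comparison the first-named side is positive, and SE is the standard error of the log2 fold change. The share of all genes whose libraries do not overlap is not given, so such separations below have no background beside them.

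On the GRCm38 build, 7 of the 10 genes lie on chromosome 5. *Cxcl5* (chr5:90759360-90761624), *Cxcl1* (chr5:90891241-90893115) and *Cxcl2* (chr5:90903871-90905938) form 1 run, and *Cxcl9* (chr5:92321347-92328079), *Cxcl10* (chr5:92346638-92348889) and *Cxcl11* (chr5:92359544-92365485) another, with *Cxcl13* apart (chr5:95956951-95961068). *Cxcl16* is on chromosome 11 (chr11:70453983-70459984), *Cxcl14* on chromosome 13 (chr13:56288643-56296551) and *Cxcl12* on chromosome 6 (chr6:117168535-117181367). The annotation lists *Cxcl11* as a polymorphic pseudogene.

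Summed per kilobase, the 10 genes were by mean most abundant in 2 FB populations of SI and least abundant in SMC and colonic pericytes. The sum was 1225, 773 and 705 CPM per kilobase in SI Fgfr2+ FB and 846, 928 and 678 in SI PDGFRα hi FB. It was 158, 228 and 205 in colonic pericytes and 161, 158 and 84.1 in SMC, below every library of those FB. Single libraries of other populations overlapped these. Replicate 2 of colonic Fgfr2+ FB (777) and of colonic PDGFRα hi FB (738) lay among the SI FB libraries. Replicate 3 of colonic CD81+ FB (204) and of SI pericytes (184) lay among the colonic pericyte libraries. *Cxcl12* gave the largest part of the sum per kilobase in 8 of the 10 populations, from 79.4% in colonic PDGFRα hi FB to 42.0% in SI Fgfr2+ FB. In SI pericytes *Cxcl12* gave 1.66%. There *Cxcl1* gave 16.7%, 69.0% and 60.4% in the 3 libraries and *Cxcl10* 69.2%, 25.5% and 5.43%, so that *Cxcl10* led in replicate 1 and *Cxcl1* in the other two.

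**Figure D1:**
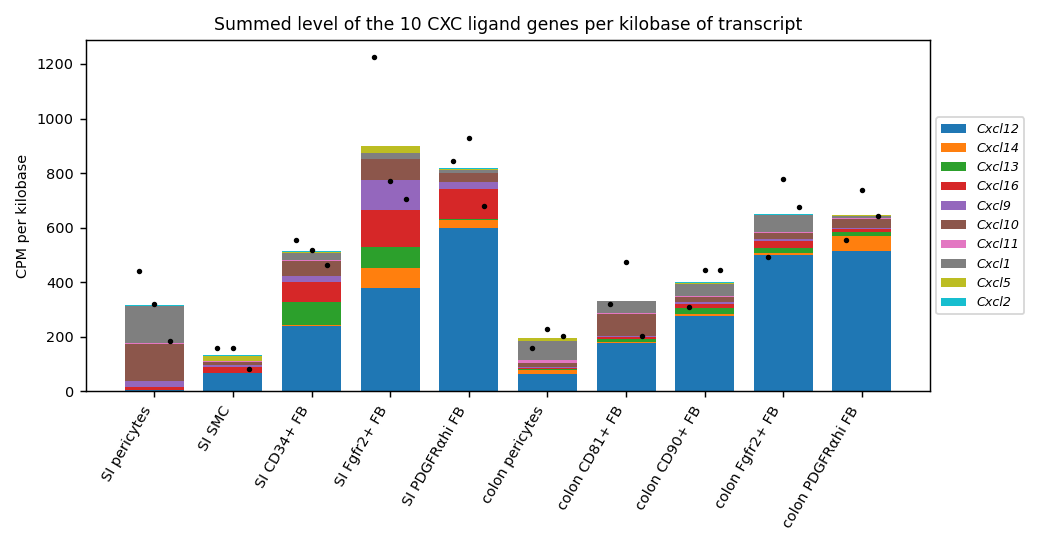
Stacked bars show the mean CPM per kilobase of the 10 genes in each of the 10 populations, and black dots show the sum in each library. *Cxcl12* fills 79.4% of the bar of colonic PDGFRα hi FB and 1.66% of that of SI pericytes.

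*Cxcl12* encodes the ligand of CXCR4, which holds leukocytes and progenitors close to stromal cells. It was read at 1478, 1668 and 1275 CPM in PDGFRα hi FB of SI, 1173, 1612 and 1291 in those of colon, 918, 1213 and 1100 in colonic Fgfr2+ FB and 1240, 746 and 734 in SI Fgfr2+ FB. In this order neighbours overlapped, while the first lay above the third and the fourth, and all 4 populations lay above every library of the other 6 populations. Next came colonic CD90+ FB with 480, 666 and 606 CPM, SI CD34+ FB with 505, 420 and 449, and colonic CD81+ FB with 438, 405 and 201, in an order in which neighbours overlapped. SMC had 170, 222 and 91.8 CPM, colonic pericytes 132, 168 and 171, and SI pericytes 9.45, 19.0 and 6.89. The SI pericyte libraries lay below all 27 others. Ranked per kilobase, *Cxcl12* was 76th of 18649 genes above 0 in SI PDGFRα hi FB, 85th of 18287 in colonic PDGFRα hi FB and 9425th of 17146 in SI pericytes. A transcript with a retained intron held 20.3% of the *Cxcl12* counts over all libraries.

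*Cxcl14* encodes a chemokine of healthy epithelia and skin that many tissues make without inflammation. Its levels were 118, 179 and 60.9 CPM in SI Fgfr2+ FB, 85.6, 128 and 64.6 in colonic PDGFRα hi FB, 51.8, 67.7 and 23.9 in SI PDGFRα hi FB and 28.4, 30.3 and 13.1 in colonic pericytes. These neighbours overlapped in turn, and their libraries all lay above those of the other 6 populations. Colonic CD90+ FB had 5.44, 12.1 and 7.63 CPM, colonic Fgfr2+ FB 4.34, 7.61 and 9.11, SMC 8.12, 1.54 and 0.771, SI CD34+ FB 3.81, 2.35 and 3.98, and colonic CD81+ FB 3.59, 0.0631 and 1.42. No read was assigned to *Cxcl14* in any of the 3 SI pericyte libraries, which at 3 counts per library allows up to 0.464 CPM on average, counting error alone considered. Against that floor *Cxcl14* was at least 257-fold higher in SI Fgfr2+ FB and at least 51.5-fold higher in colonic pericytes.

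*Cxcl13* encodes the chemokine that gathers B cells into follicles. SI CD34+ FB had 106, 112 and 27.2 CPM and SI Fgfr2+ FB 101, 24.4 and 93.1, so that 1 library of each was far below the other two. Colonic FB had 10.6, 25.4 and 23.5 CPM in the CD90+ subset, 6.51, 27.0 and 21.2 in the Fgfr2+ subset, 10.5, 8.55 and 22.4 in the PDGFRα hi subset and 12.9, 11.8 and 7.08 in the CD81+ subset, all overlapping. SI PDGFRα hi FB had 2.14, 2.48 and 0.574 CPM, below every library of the other FB. SMC had 0.316, 0.770 and 0.330 CPM. Pericytes were at the edge of detection, with 1, 2 and 1 counts in SI and 3, 1 and 1 in colon. The ratio of pooled counts of SI CD34+ FB over SI pericytes was 440, with a 95% exact counting interval of 172 to 1620.

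*Cxcl16* encodes the membrane-anchored ligand of CXCR6, a receptor of resident T cells and innate lymphoid cells. Its levels were 192, 196 and 192 CPM in SI Fgfr2+ FB, 162, 198 and 109 in SI PDGFRα hi FB and 97.6, 101 and 85.9 in SI CD34+ FB. Every one of these 9 libraries lay above all 21 others. Colonic FB had 15.4, 47.4 and 40.6 CPM in the Fgfr2+ subset, 20.4, 44.1 and 17.2 in the CD90+ subset, 11.9, 14.1 and 9.46 in the CD81+ subset and 10.3, 11.6 and 12.8 in the PDGFRα hi subset. SMC had 40.5, 42.7 and 4.73 CPM, SI pericytes 26.2, 2.15 and 29.4, and colonic pericytes 0.215, 11.2 and 9.27, with wide spread between replicates. The 5′ end of *Cxcl16* overlaps *Zmynd15* on the opposite strand, and 18.5% of the 31-base words of its transcripts also occur in that gene. *Zmynd15* itself had 551, 346 and 169 CPM in SI Fgfr2+ FB and 124, 105 and 60.4 in SI PDGFRα hi FB.

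*Cxcl9* encodes a T cell chemokine induced by interferon-γ. Its reads came to 248, 130 and 126 CPM in SI Fgfr2+ FB, above every other library. SI PDGFRα hi FB had 38.0, 26.3 and 35.6 CPM and SI CD34+ FB 27.2, 37.5 and 27.4, and these overlapped each other. Colonic Fgfr2+ FB had 20.4, 6.38 and 8.79 CPM, the CD90+ subset 2.78, 11 and 15.5, the PDGFRα hi subset 3.67, 10.7 and 10.5, and the CD81+ subset 5.96, 3.52 and 1.13. All 9 SI FB libraries lay above all 12 colonic FB libraries. SI pericytes had 91.2, 2.75 and 31.7 CPM, SMC 8.17, 6.64 and 13.3, and colonic pericytes 0.560, 0.475 and 3.64.

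*Cxcl10* encodes another interferon-induced ligand of CXCR3. Its levels were 509, 112 and 17.0 CPM in SI pericytes, 61.6, 148 and 29.2 in colonic CD81+ FB, 88.1, 115 and 23.2 in SI Fgfr2+ FB and 54.1, 49.7 and 63.8 in SI CD34+ FB. Colonic PDGFRα hi FB had 38.5, 12.1 and 40.9 CPM, SI PDGFRα hi FB 37.5, 21.3 and 29.9, colonic Fgfr2+ FB 7.23, 30.2 and 26.7, and colonic CD90+ FB 12.2, 23.0 and 13.5. Colonic pericytes had 2.37, 2.40 and 36.9 CPM and SMC 23.2, 2.02 and 0.661. In this order SI CD34+ FB and colonic PDGFRα hi FB were the 1 pair of neighbours whose libraries did not overlap. Transcripts with a retained intron held 82.9%, 45.2% and 81.3% of the *Cxcl10* counts in SI pericytes. *Art3*, which overlaps *Cxcl10* and shares 4.47% of its 31-base words, had 954, 535 and 292 CPM there. Replicate 1 of SI pericytes, the highest for *Cxcl10* at 509 CPM, also held the highest sum of the 12 immune markers, 215.9 CPM, of which the B cell gene *Cd79a* gave 199.9. In that library the markers *Ptprc* and *Jchain* had 4.19 and 0 CPM. The part of immune cells in its *Cxcl10* was not tested.

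*Cxcl11*, the third ligand of CXCR3, was low in all populations. Its highest value, 50 CPM, came from replicate 1 of colonic pericytes, whose other libraries had 0.260 and 0.665. Colonic CD90+ FB had 13.1, 6.58 and 21.7 CPM. The transcripts of *Cxcl11* share 42.2% of their 31-base words with other genes, mostly with the overlapping *Gm2673*.

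*Cxcl1* encodes a neutrophil chemokine that acts through CXCR2. It was read at 77.1, 277 and 108 CPM in SI pericytes and 29.2, 112 and 57.1 in colonic pericytes, the highest means of the 10. Colonic Fgfr2+ FB had 12.7, 89.2 and 59.6 CPM, CD90+ FB 23.9, 31.2 and 75.9, and CD81+ FB 10.2, 60.9 and 46.2. SI CD34+ FB had 16.4, 19.5 and 41.0 CPM, SI Fgfr2+ FB 29.0, 3.43 and 22.8, SI PDGFRα hi FB 5.22, 8.80 and 15.9, colonic PDGFRα hi FB 3.19, 6.89 and 12.6, and SMC 3.90, 4.53 and 0.11. Neighbours in this order overlapped, and every SI pericyte library lay above every SI FB and SMC library. Retained-intron transcripts held 51.4%, 71.3% and 37.0% of the *Cxcl1* counts in SI pericytes and 44.2% over all libraries.

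*Cxcl5*, a neutrophil chemokine of the same run of genes, had another pattern. It was read at 51.5, 28.8 and 20.2 CPM in SI Fgfr2+ FB and 26.9, 33.3 and 24.2 in SMC, which overlapped, and at 4.29, 22.3 and 19.1 in colonic pericytes. SI CD34+ FB had 7.08, 9.64 and 9.40 CPM, and no library of the 6 remaining populations passed 6.40. SI pericytes, the population with the most *Cxcl1*, had 2.02, 1.77 and 2.08 CPM. In SMC 36.0%, 59.3% and 69.3% of the *Cxcl5* counts came from a retained-intron transcript. *Cxcl2*, the third of these neutrophil chemokines, was near the limit of detection, with 6.77 CPM in replicate 1 of SI Fgfr2+ FB as its highest value.

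**Figure D2:**
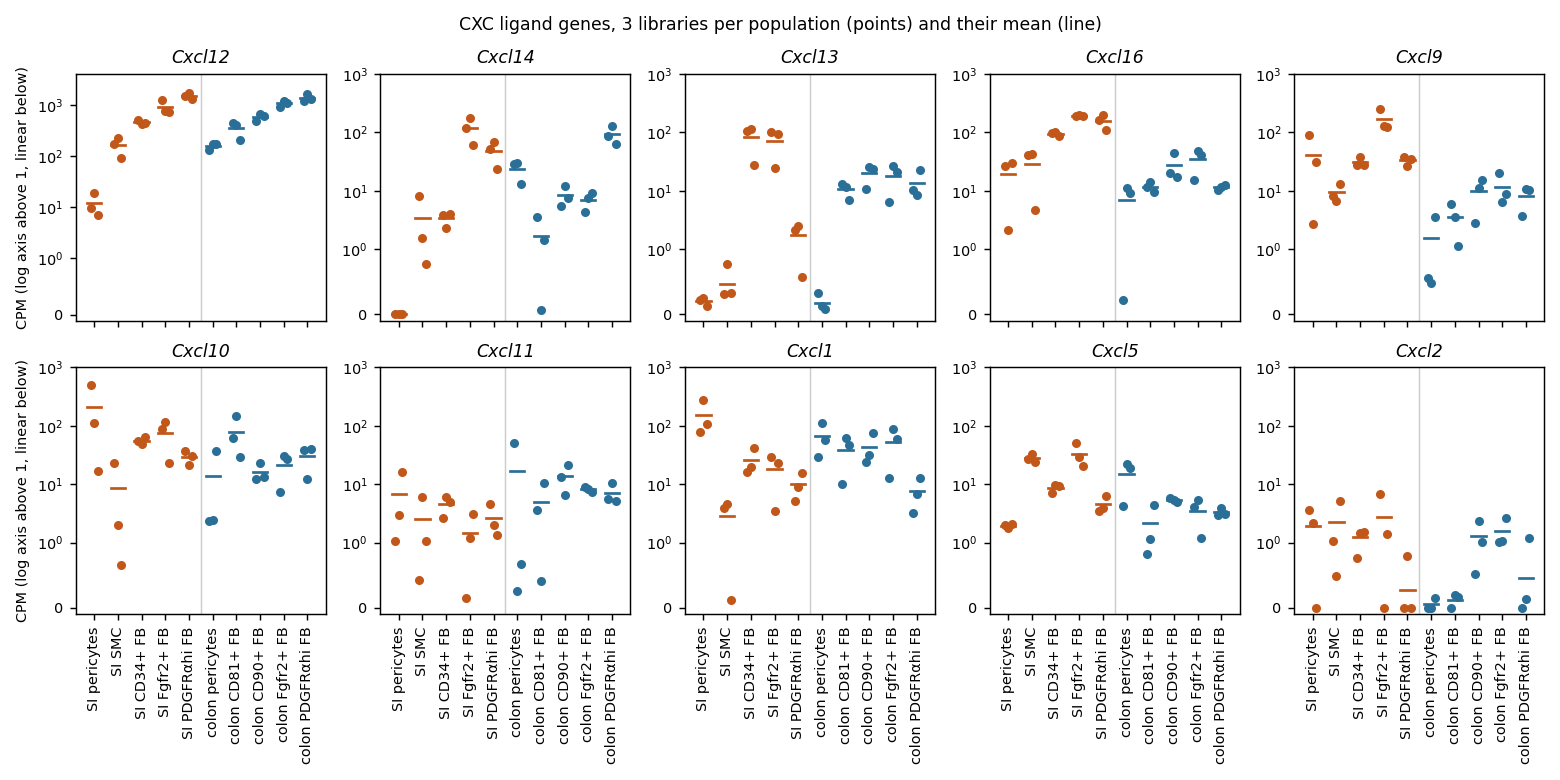
Each panel shows the CPM of 1 gene in the 3 libraries of each population as points and their mean as a line, with SI in orange and colon in blue, on an axis that is logarithmic above 1 and linear below. *Cxcl14* sits at 0 in SI pericytes, where *Cxcl1* reaches 277.

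Pericytes were compared with the FB of the same tissue to see how the family divides between mural cells and fibroblasts. In SI, 6 of the 10 genes were called, beside 15.2% of all genes tested. On the log2 scale *Cxcl1* was higher in pericytes by 3.19 (SE 0.67, adjusted p 0.00342), and *Cxcl12* was lower, at -6.17 (SE 0.47, adjusted p 1.15e-07). *Cxcl5* at -2.51 and *Cxcl16* at -2.89 were lower too, as were *Cxcl13* and *Cxcl14*. Pericyte counts of the last 2 were near 0, so their fitted folds are no bounds and are not printed. *Cxcl10*, at 2.09 and an adjusted p of 0.0749, was not called. It gave 0.36 without replicate 1 of SI pericytes, 0.31 without retained-intron transcripts, 1.17 with a replicate block and 1.26 with length-scaled counts. It was called by DESeq2, with no filter on low counts, without replicate 3 of SI pericytes (2.64) and without replicate 1 or 3 of SMC, which share the model. The median of the 10 log2 fold changes was -1.46, beside 0.02 over all genes, and it is the same with *Cxcl14* put at its bound. *Cxcl1* gave 2.46 without replicate 2 of SI pericytes and 2.45 without retained-intron transcripts. *Cxcl16* counted from its transcript clear of *Zmynd15* gave -3.16 at an adjusted p of 0.0516, in a range of 0.000123 to 0.0516 over all alternatives.

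In colon, 3 of the 10 genes were called between pericytes and FB, beside 16.6% of all genes. *Cxcl12* was lower in pericytes, at -2.23 (SE 0.27, adjusted p 8.33e-06), a smaller value than in SI, though the difference between the tissues' contrasts was not tested. *Cxcl13* was lower as well, with ratios of pooled counts of FB subsets over pericytes between 66.9 and 118, and an adjusted p of 6.45e-05. *Cxcl5* was higher in pericytes by 2.16 (SE 0.64, adjusted p 0.0229), opposite in sign to SI. The median was -1.26, beside 0.05 over all genes. *Cxcl5* gave 1.79 at an adjusted p of 0.114 without replicate 2 of colonic pericytes, 1.95 at 0.0836 without replicate 3 and 2.02 at 0.0614 with a replicate block, in a range of 0.00258 to 0.114. Without replicate 1 of colonic pericytes the fitted value of *Cxcl13* was -7.17, against -6.41 with all libraries, and neither is a bound.

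Pericytes and SMC of SI, both ESAM-1+ and split by PDPN, differed in 5 of the 10 genes, beside 8.49% of all genes. Pericytes were higher in *Cxcl1* by 5.73 (SE 1.11, adjusted p 0.00327) and in *Cxcl10* by 4.62 (SE 1.22, adjusted p 0.0246). They were lower in *Cxcl5* at -3.87 (SE 0.69, adjusted p 0.00166), in *Cxcl12* at -3.78 (SE 0.44, adjusted p 2.77e-05) and in *Cxcl14*, which SMC held at least 7.49-fold higher. Replicate 1 of SMC carries that bound, which is 2.49-fold without it. *Adamdec1*, a marker of Fgfr2+ FB, had 9580, 9730 and 12020 CPM in SMC and 102.4, 47.5 and 107.5 in SI pericytes. *Fgfr2* had 450, 339 and 205 CPM against 4.51, 1.26 and 1.11, while the marker *Ces1d* stayed below 1 CPM in both. The part of fibroblast transcripts in the chemokine differences was not tested. The median was -0.42, beside -0.01 over all genes, and is the same with *Cxcl14* at its bound. The *Cxcl10* call rested on single libraries. It gave 2.89 at an adjusted p of 0.111 without replicate 1 of SI pericytes, 4.15 at 0.0908 without replicate 2 of SMC and 4.03 at 0.0682 without replicate 3 of SMC. It gave 7.28 without replicate 1 of SMC, 3.43 at 0.101 with length-scaled counts and 2.97 at 0.121 without retained-intron transcripts, and its adjusted p ranged from 0.000131 to 0.121. *Cxcl1* gave 4.97 without replicate 2 of SI pericytes and 4.62 without retained-intron transcripts, and *Cxcl5* -2.70 without the latter. The fitted value of *Cxcl14*, which is no bound, was -6.49 without replicate 1 of SMC.

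Pericytes of SI and colon, sorted by the same gate, were compared to see whether the family differs between the tissues in mural cells. Cell isolation differed with the tissue here too. edgeR called 0 of 8 genes tested and 0% of all genes, with 4 of the 8 and 8.16% of all genes at an unadjusted p below 0.05, and a smallest adjusted p of 0.0884. DESeq2 called 2.59% of all genes and 3 of the family, *Cxcl9*, *Cxcl12* and *Cxcl14*. The model of all 30 libraries called more of the family than either, as given below, but its share of all genes is not given. *Cxcl12*, with 9.45, 19.0 and 6.89 CPM in SI and 132, 168 and 171 in colon, gave -3.72 (SE 0.75) in edgeR at an adjusted p of 0.229, lower in SI in 3 of 3 libraries. *Cxcl2* and *Cxcl13* had too few counts to be tested. Smooth muscle transcripts were read in the same pericytes, with 2159, 1171 and 1423 CPM of *Myh11* in SI, 6869, 6939 and 7170 in colon and 12020, 9292 and 13190 in SMC. *Acta2*, *Actg2*, *Cnn1* and *Tagln* were also higher in colonic than in SI pericytes, but *Des* ran the other way. *Des* had 1110, 1203 and 1111 CPM in SI pericytes, 651, 783 and 711 in colonic pericytes and 835, 780 and 485 in SMC. *Cnn1*, at 77.3, 20.8 and 98.3 CPM in colonic pericytes, stayed far below the 1086, 1047 and 907 of SMC. The *Cxcl12* of SMC was 170, 222 and 91.8 CPM and their *Cxcl5* 26.9, 33.3 and 24.2, against 4.29, 22.3 and 19.1 of *Cxcl5* in colonic and 2.02, 1.77 and 2.08 in SI pericytes. The part of smooth muscle cells in these levels, and in the *Cxcl5* call against colonic FB, was not tested. The median was -0.02, beside 0.01 over all genes, and is the same with *Cxcl14* at its bound.

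CD34+ FB of SI, a subset of the submucosa and the crypt region, were compared with the Fgfr2+ FB of the villus core. Of the 10 genes edgeR called 1, beside 0.900% of all genes, with a median of -1.02 beside -0.01. DESeq2 called 3, beside 2.89% of all genes. *Cxcl14* was lower in CD34+ FB, with 3.81, 2.35 and 3.98 CPM against 118, 179 and 60.9, which gave -5.15 (SE 0.92) at an adjusted p of 0.0143. All 3 libraries of one side lay below all 3 of the other. The call was lost at log2 values near the full one, -5.25 (adjusted p 0.104), -4.94 (0.106) and -5.28 (0.0865) without replicate 1, 2 or 3 of CD34+ FB and -4.73 (0.0637) without replicate 2 of SI Fgfr2+ FB, in a range of 1.5e-08 to 0.106. Without replicate 2 of SI pericytes, which share the model, 2 genes were called, *Cxcl9* and *Cxcl14*.

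In colon, CD81+ FB, the adventitial subset, were compared with the mean of CD90+ and Fgfr2+ FB. edgeR called 0 of the 10 genes, beside 1.79% of all genes, with 4 at an unadjusted p below 0.05, beside 14.0%, and DESeq2 called 1, *Cxcl14*, beside 3.95%. *Cxcl12*, with 438, 405 and 201 CPM in CD81+ FB below all 6 other libraries, gave -1.16 (SE 0.26) at an adjusted p of 0.0253, under the fold threshold. The median was -1.12, beside 0.08 over all genes. Without replicate 3 of colonic pericytes, which share the model, 1 gene was called, *Cxcl10*.

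Over all populations of a tissue at once, with no fold threshold, 7 of the 10 genes differed in SI, beside 15.8% of all genes. These were *Cxcl1*, *Cxcl5*, *Cxcl9*, *Cxcl12*, *Cxcl13*, *Cxcl14* and *Cxcl16*. In colon 3 of the 10 differed, *Cxcl12*, *Cxcl13* and *Cxcl14*, beside 14.8% of all genes. DESeq2 called more of the 10 in colon, as given below, beside 23.2% of all genes.

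Fgfr2+ and PDGFRα hi FB occur in both tissues, so that subset and tissue could be set against each other. Between the subsets, with tissues pooled, edgeR called 0 of the 10 genes, beside 2.69% of all genes. That model had no term for tissue, so differences between the tissues entered its spread. A count of 0 there does not show that the subsets are alike. Of the 10, 5 had an unadjusted p below 0.05, and DESeq2 called 4, *Cxcl1*, *Cxcl5*, *Cxcl9* and *Cxcl13*, beside 14.6% and 4.44% of all genes. The median was 1.39 in the direction of Fgfr2+ FB, beside 0.08 over all genes, with 8 of 10 values positive. Without replicate 3 of colonic Fgfr2+ FB 1 gene was called, *Cxcl5*, and without replicate 2 of SI Fgfr2+ FB 1 gene, *Cxcl1*.

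Between SI and colon, Fgfr2+ FB differed in 4 of the 10 genes, beside 3.1% of all genes, and all 4 were higher in SI. *Cxcl14*, at 118, 179 and 60.9 CPM in SI and 4.34, 7.61 and 9.11 in colon, rose by 4.13 (SE 0.53, adjusted p 0.000299). *Cxcl9*, at 248, 130 and 126 against 20.4, 6.38 and 8.79, rose by 3.85 (SE 0.56, adjusted p 0.000963). *Cxcl5*, at 51.5, 28.8 and 20.2 against 4.09, 5.34 and 1.19, rose by 3.24 (SE 0.72, adjusted p 0.0206). *Cxcl16*, at 192, 196 and 192 against 15.4, 47.4 and 40.6, rose by 2.54 (SE 0.38, adjusted p 0.00126). In each of the 4 genes every SI library lay above every colonic one, a separation whose share over all genes is not given. *Cxcl11*, which was not called, ran the other way without overlap, at 0.140, 1.19 and 3.08 CPM in SI against 8.99, 8.12 and 7.39. The median was 1.95, beside 0.02 over all genes. *Cxcl5* gave 3.37 at an adjusted p of 0.0522 without replicate 1 of colonic Fgfr2+ FB, 2.83 at 0.0734 without replicate 3 and 2.82 at 0.0679 without replicate 1 of SI Fgfr2+ FB, in a range of 1.38e-05 to 0.0734. *Cxcl9* gave 4.52 without replicate 1 of colonic Fgfr2+ FB. *Cxcl16* gave 2.49 at an adjusted p of 0.161 in a model of all 30 libraries, in a range of 4.9e-09 to 0.161.

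In PDGFRα hi FB 2 of the 10 genes differed between the tissues, beside 1.76% of all genes, in opposite directions. *Cxcl16*, at 162, 198 and 109 CPM in SI and 10.3, 11.6 and 12.8 in colon, was higher in SI by 3.72 (SE 0.41, adjusted p 6.86e-05). *Cxcl13*, at 2.14, 2.48 and 0.574 against 10.5, 8.55 and 22.4, was lower in SI with -3.00 (SE 0.74, adjusted p 0.0477). For both genes the libraries of the tissues did not overlap. Nor did they for *Cxcl11*, not called and lower in SI, at 4.53, 2.04 and 1.34 CPM against 5.58, 10.3 and 5.25. *Cxcl9*, at 38.0, 26.3 and 35.6 against 3.67, 10.7 and 10.5, gave 1.98 at an adjusted p of 0.0683. The median was 0.01, beside 0.00 over all genes.

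The *Cxcl13* call in PDGFRα hi FB sat at the threshold, and where it was lost the count was 1, *Cxcl16*. Its adjusted p was 0.0897, 0.0681 and 0.213 without replicate 1, 2 or 3 of colonic PDGFRα hi FB, and 0.152, 0.116 and 0.173 without those of SI. It was 0.0604 and 0.0679 without replicate 2 or 3 of colonic Fgfr2+ FB and 0.0611 without replicate 3 of SI Fgfr2+ FB, which share the model. Its log2 fold change lay between -3.36 and -2.49 and its adjusted p between 0.000733 and 0.213 over all alternatives. It gave -2.90 at 0.107 with a replicate block, -3.01 at 0.122 with length-scaled counts and -3.01 at 0.0537 without retained-intron transcripts.

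The tissue difference itself differed between the subsets for 2 of the 10 genes, beside 1.28% of all genes, with a median of 1.67 beside 0.00. For *Cxcl14*, the tissue difference of Fgfr2+ FB minus that of PDGFRα hi FB was 5.13 (SE 0.70, adjusted p 0.00106). *Cxcl14* had its highest mean in the Fgfr2+ FB of SI, whose libraries overlapped those of PDGFRα hi FB there, and in the PDGFRα hi FB of colon, which lay above all other colonic libraries. For *Cxcl13* the value was 5.05 (SE 1.01, adjusted p 0.0172), with SI PDGFRα hi FB lowest of the 4 populations. *Cxcl5* at 2.81 (adjusted p 0.230), *Cxcl9* at 1.86 (0.308) and *Cxcl16* at -1.18 (0.402) did not pass, so their tissue differences were not shown to depend on the subset. *Cxcl9* gave 2.54 without replicate 1 of colonic Fgfr2+ FB, and was not called there either. *Cxcl13* gave 5.16 at an adjusted p of 0.0522 without replicate 3 of colonic Fgfr2+ FB, 4.53 at 0.0598 without replicate 3 of colonic PDGFRα hi FB, 4.94 at 0.0553 with a replicate block and 5.01 at 0.0613 with length-scaled counts, in a range of 1.89e-05 to 0.0613. Without either of these libraries 1 gene was called, *Cxcl14*.

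**Figure D3:**
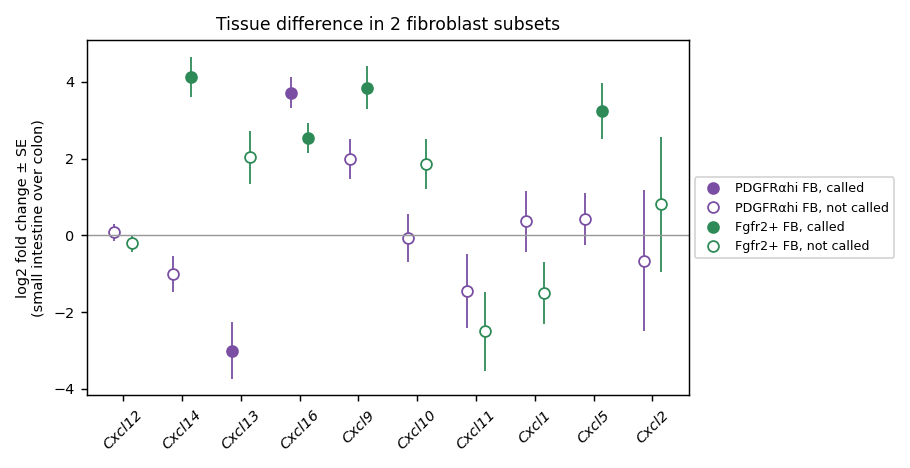
Points show the log2 fold change of SI over colon for each of the 10 genes in PDGFRα hi FB (purple) and Fgfr2+ FB (green), with bars of 1 standard error and called values filled. *Cxcl14* lies at 4.13 in Fgfr2+ FB, and *Cxcl13* at -3.00 in PDGFRα hi FB.

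The atypical receptors bind chemokines without signalling through G proteins and take them up, which lowers their level around the cell. *Ackr3*, the scavenger of CXCL12, had 3.75, 2.14 and 2.3 CPM in the PDGFRα hi FB of SI and 52.0, 44.3 and 72.6 in those of colon. The tissues did not overlap, and SI was lower with -4.40 (SE 0.40, adjusted p 1.25e-05), while *Cxcl12* itself stood above 1100 CPM in all 6 of these libraries. SI Fgfr2+ FB had 103, 122 and 80.3 CPM of *Ackr3* and colonic Fgfr2+ FB 82.1, 89.0 and 106.5, and the tissue difference differed between the subsets by 4.58 (SE 0.51, adjusted p 0.00034). The highest mean of *Ackr3* was in colonic CD81+ FB, with 246, 223 and 147 CPM, which overlapped the 78.3, 203 and 202 of colonic pericytes. *Ackr4*, which takes up CC chemokines, marked CD34+ FB of SI with 468, 409 and 381 CPM and colonic CD81+ FB with 344, 658 and 426. It was higher by 7.10 (SE 0.58, adjusted p 2.09e-05) in CD34+ than in Fgfr2+ FB of SI and by 5.03 (SE 0.89, adjusted p 0.00575) in CD81+ FB of colon. Against the mean of the FB subsets it was lower in pericytes with -2.50 in SI and -4.10 in colon, and in SI the value comes from CD34+ FB. With 1.11, 4.27 and 3.25 CPM SI pericytes overlapped SI PDGFRα hi FB (2.83, 4.75 and 2.85) and SI Fgfr2+ FB (2.19, 3.01 and 4.28), and colonic pericytes, with 3.05, 1.56 and 0.919, overlapped each colonic FB subset but CD81+ FB. These were the 6 calls among the 4 atypical receptors outside the tests over all populations, which the counts of calls below leave out too. Each was the 1 call of its comparison, beside 1.76% of all genes between tissues in PDGFRα hi FB, 1.28% for the difference between subsets, 0.900% in CD34+ FB, 1.79% in CD81+ FB, and 15.2% and 16.6% in pericytes of SI and colon. *Ackr1* and *Ackr2* lay at or below 66.3 CPM.

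Of the 6 CXC receptors, *Cxcr4*, the receptor of CXCL12, was the 1 gene with calls, in 2 comparisons in which 15.2% and 8.49% of all genes were called. It had 20.2, 54.2 and 15.3 CPM in SI pericytes, the population with the least *Cxcl12*, and no other library passed 9.46. It was higher in SI pericytes than in FB by 5.41 (SE 0.77, adjusted p 0.000101) and than in SMC by 5.54 (SE 1.21, adjusted p 0.00781). *Cxcr2* lay between 5.40 and 42.5 CPM in all libraries, *Cxcr5* at or below 6.36, *Cxcr6* at or below 18.0, and *Cxcr1* and *Cxcr3* were at 0 in most. Among 5 further CXC ligands, *Cxcl15* was called once, lower in pericytes than in SMC with -3.14 (SE 0.63, adjusted p 0.0043), beside 8.49% of all genes. It had 70.2, 64.0 and 117 CPM in SMC and at most 17.1 in any other library. *Ppbp* was at 0 in all 30 libraries, and *Cxcl3*, *Cxcl17* and *Pf4* stayed at or below 19.2 CPM.

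Of 6 proteases that cut or shed chemokines, *Mmp2*, which trims CXCL12, was the 1 called in each of 2 comparisons, near the 15.2% and 16.6% of all genes there. It had 216, 82.8 and 159 CPM in SI pericytes and 29.5, 6.05 and 57.8 in colonic pericytes. It was lower there than in FB with -2.69 (SE 0.35, adjusted p 4.36e-05) in SI and -4.79 (SE 0.56, adjusted p 6.87e-06) in colon. *Adam10* and *Adam17*, which release CXCL16 from the membrane, and *Mmp14* were present everywhere and not called. *Dpp4*, which clips CXCL9, CXCL10 and CXCL12, was at 0 in SI Fgfr2+ FB and in both pericyte populations and had 16.3, 17.5 and 5.25 CPM in colonic CD81+ FB. *Mmp9* was at 0 in 6 populations.

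The 23 genes of the interferon-γ response were followed beside *Cxcl9* and *Cxcl10*. In Fgfr2+ FB 7 of the 23 were higher in SI than in colon and 0 lower, beside 3.1% of all genes called, with a median of 1.33 beside 0.02. Among them were the guanylate-binding proteins *Gbp2* (2.33), *Gbp4* (3.38), *Gbp5* (2.26) and *Gbp7* (1.83), and the immunity-related GTPases *Irgm2* (2.12) and *Iigp1* (3.19). In PDGFRα hi FB 3 were higher in SI, among them *Irgm2* (1.85) and *Iigp1* (2.06), beside 1.76% of all genes, with a median of 0.63 beside 0.00. For the difference between the subsets' tissue effects edgeR called 0 of the 23, with 3 at an unadjusted p below 0.05, beside 11.3% of all genes, and DESeq2 called 1, beside 3.49%. The summed level of the list was 5608, 2818 and 2272 CPM in SI Fgfr2+ FB and 1292, 1355 and 1480 in colonic Fgfr2+ FB. SI pericytes had 8335, 2882 and 2217, replicate 1 being the library with the most *Cxcl10*. Pericytes were higher than FB in 3 genes and lower in 1 in each tissue, a share near the 15.2% in SI and 16.6% in colon of all genes, and higher than SMC in 6, beside 8.49%. The receptor chains *Ifngr2* (3.12 in SI, 2.94 in colon) and *Ifngr1* (-2.71 in SI, -2.3 in colon) moved in opposite directions. Between the subsets edgeR called 0 of the 23, where 3 had an unadjusted p below 0.05 and DESeq2 called 1, near the 14.6% and 4.44% of all genes. edgeR called 0 in CD34+ FB, with 2 and 0 in the same order beside 10.2% and 2.89%, and 0 in CD81+ FB, with 3 and 1 beside 14.0% and 3.95%. Between the tissues in pericytes it called 0, with 9 and 3 beside 8.16% and 2.59%.

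The 16 genes of the NF-κB response, a pathway that drives transcription of neutrophil chemokines, gave calls in 7 comparisons. Between the subsets 3 were higher in Fgfr2+ FB, beside 2.69% of all genes, *Vcam1* (3.22), *Ccl2* (2.77) and *Tnfaip3* (1.78), and the tissue difference of *Vcam1* differed between the subsets by 2.45, the 1 call of that test, beside 1.28%. In Fgfr2+ FB 4 were lower in SI, beside 3.1%, among them *Zfp36*, which destabilizes chemokine transcripts, at -3.45, and *Nfkbiz* at -3.82. Pericytes were higher than FB in 4 and lower in 1 in SI, beside 15.2%, and higher in 2 and lower in 4 in colon, beside 16.6%. They were higher than SMC in 5 and lower in 1, beside 8.49%, and CD34+ FB were higher than Fgfr2+ FB in *Zfp36* by 2.66, the 1 call there, beside 0.900%.

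The 12 immediate early and heat shock genes that rise when tissue is dissociated moved along with some of these comparisons. Of the 12, 10 were higher in pericytes than in FB of SI (median 2.52), beside 15.2% of all genes, and 4 in colon, beside 16.6%. In pericytes 7 were higher than in SMC, beside 8.49%, in CD34+ FB 3 than in Fgfr2+ FB, beside 0.900%, and in CD81+ FB 1, beside 1.79%. In Fgfr2+ FB 8 were lower in SI (median -3.18), beside 3.1%, and for 2, *Egr1* and *Dusp1*, the tissue difference differed between the subsets, beside 1.28%. Their summed level was 6904, 15460 and 7361 CPM in SI pericytes and 9671, 12760 and 11030 in colonic pericytes. It was 989, 806 and 874 in SI Fgfr2+ FB and 1068, 1063 and 1634 in SMC. Replicate 2 of SI pericytes held both the highest sum, 15460 CPM, and the highest *Cxcl1*, 277 CPM. The part of dissociation in the *Cxcl1* differences was not tested.

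Of 10 genes of lymphoid stroma, looked at beside *Cxcl13*, *Tnfsf13b*, which encodes the B cell survival factor BAFF, was called in 4 comparisons. It had 214, 76.2 and 118 CPM in SI Fgfr2+ FB and 207, 183 and 141 in colonic CD90+ FB. It was higher in Fgfr2+ than in PDGFRα hi FB by 1.97 and lower in CD81+ FB with -1.92, beside 2.69% and 1.79% of all genes. It was lower in pericytes as well, with -4.05 in SI and -6.19 in colon. *Ccl21a* was lower in SI pericytes, where it was at 0, and these 2 calls in SI and 1 in colon stand beside 15.2% and 16.6% of all genes. *Bst1*, which encodes the BP3 used to gate cells out, lay at or below 15 CPM, and *Ccl19* at or below 18.9. *Tnfsf11* and *Madcam1* were at 0 in most populations.

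The labels were checked against marker lists. The 8 pericyte markers summed to 55000, 36240 and 45700 CPM in SI pericytes and 40210, 55880 and 34720 in colonic pericytes, led by *Rgs5*, and all 8 were higher than the mean of the FB subsets of either tissue, beside 15.2% of all genes in SI and 16.6% in colon. Of the single subsets, SI PDGFRα hi FB had 569, 710 and 427 CPM of *Kcnj8* beside 441, 80.4 and 303 in SI pericytes. Their *Abcc9* and *Cspg4* levels overlapped as well. The 6 smooth muscle markers summed to 21370, 17400 and 20860 CPM in SMC, led by *Myh11*, and to 10390, 11470 and 11420 in colonic against 4584, 3105 and 3284 in SI pericytes. The 6 PDGFRα hi FB markers, led by *Pdgfra*, summed to 10240, 11000 and 10620 CPM in that subset of SI and 6438, 6487 and 6333 in colon, and 5 of 6 were lower in Fgfr2+ FB, beside 2.69% of all genes. The 3 Fgfr2+ FB markers, led by *Adamdec1*, summed to 24110, 21130 and 17590 CPM in SI Fgfr2+ FB, 9054, 7697 and 8948 in colonic Fgfr2+ FB, 3128, 8686 and 3604 in colonic CD90+ FB, which overlap them, and 10030, 10070 and 12230 in SMC, which were gated apart from FB by ESAM-1. These sums are mostly *Adamdec1*, and *Ces1d* ran the other way in SI, with 68.9, 72.6 and 44.6 CPM in Fgfr2+ FB and 176, 168 and 175 in CD34+ FB. The 5 CD81+ and CD34+ FB markers, led by *Grem1*, summed to 4375, 4292 and 3660 CPM in colonic CD81+ FB and 2612, 2193 and 1928 in SI CD34+ FB. The 3 CD90+ FB markers, led by *Igfbp5*, summed to 1297, 1742 and 1508 CPM in CD90+ FB, 1307, 1345 and 1994 in colonic Fgfr2+ FB, 1273, 1938 and 1916 in colonic pericytes and 1316, 1921 and 913 in SI pericytes, and did not set CD90+ FB apart. *Thy1*, which encodes CD90, had 255, 176 and 159 CPM in CD90+ FB, 47.4, 138 and 241 in colonic pericytes and 120, 426 and 118 in SI pericytes. Of the colonic subsets gated with CD34 and without CD90, Fgfr2+ FB had 28.4, 23.7 and 27.8 CPM and CD81+ FB 120.5, 117.5 and 58.4.

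Markers of other cells were read as well, although cells with lineage markers, CD31 or EpCAM had been gated out. The 12 immune markers summed to 215.9, 24.5 and 71.9 CPM in SI pericytes, 26.6, 152 and 37.5 in colonic pericytes and at most 86.3 in any other library, with *Cd52*, *Tyrobp*, *Fcer1g* and *S100a8* at 0 in SI pericytes. In SI pericytes 2 of 8 tested were higher and 1 lower than in FB, beside 15.2% of all genes. The 8 endothelial markers summed to 377, 269 and 187 CPM in SI pericytes, where 4 of 8 were higher than in FB, beside the same 15.2%, and to 389, 380 and 325 in colonic CD81+ FB, led by *Tek* in both. The 10 epithelial markers reached 121.5 CPM in replicate 3 of colonic PDGFRα hi FB and 114 in replicate 2 of colonic pericytes, with *Muc2* the most abundant in both populations and *Epcam* at 0 in them. The 6 glial and neural markers summed to at most 56.9 CPM, in replicate 1 of SI pericytes, led there by *L1cam* with *Sox10* and *Gfap* at 0. The 3 interstitial cell markers summed to 1159, 584 and 742 CPM in SI pericytes and 808, 901 and 687 in colonic pericytes, a level that rests on *Ano1*. *Kit*, the defining marker of these cells, had 0.429, 0 and 8.37 CPM in SI pericytes and at most 0.126 in colonic pericytes, and its highest mean was in SI PDGFRα hi FB, with 7.10, 8.52 and 43.4. The 5 mesothelial markers stayed at or below 25.4 CPM, led in that population, SI pericytes, by *Krt7* with *Msln* and *Upk3b* at 0. The part of these cells in the chemokine levels was not tested.

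Across the 10 population means, the pattern of each gene was set beside that of 12605 genes by Pearson's r of log2 CPM plus 1, a description over 10 points that share tissues and library depth. *Cxcl9* and *Cxcl16* were the most alike pair of members (r 0.839), and *Cxcl12* and *Cxcl14* gave 0.711. Closest to *Cxcl12* were *Xpo5* (0.971), *Mpzl1* (0.968) and *Rpl37a* (0.961), and closest to *Cxcl9* *Rcc1l* (0.958), *Crocc* (0.951) and the interferon-induced *Gbp6* (0.946). Closest to *Cxcl10* were *Rsad2* (0.927), also interferon-induced, *Ly96* (0.923) and *Ptrhd1* (0.915), and to *Cxcl16* its overlapping neighbour *Zmynd15* (0.950) and *Exoc3l4* (0.914). Closest to *Cxcl1* were *Amph* (0.926), *Sgpp1* (0.925) and *Tomm5* (0.919), to *Cxcl5* *1700029J07Rik* (0.960), *Ccdc169* (0.932) and *Maip1* (0.922), and to *Cxcl11* *Nr4a2* (0.939), *Dlgap1* (0.936) and *Ccdc163* (0.928). Closest to *Cxcl13* were *Wipi1* (0.948), *Jpt1* (0.932) and *Gpm6b* (0.905), and to *Cxcl14* *Ndufa9* (0.958), *Zfp821* (0.902) and *Slc24a5* (0.901). *Cxcl2* was too low for this comparison.

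RefSeq promoters on GRCm38.p6 were found for 7 of the 10 genes, and those of *Cxcl5*, *Cxcl11* and *Cxcl16* are missing. The 250 bases before the start were searched on both strands for the κB motif, GGG and TTCC with any 3 bases between, held by 4.65% of 32851 promoters, the interferon-γ motif TTCNNNGAA, held by 7.02%, and the interferon response motif, GAAA and GAAA with any 2 bases between, held by 2.98%. The promoters of *Cxcl1* (chr5:90890995-90891244, plus strand) and *Cxcl2* (chr5:90903649-90903898, plus strand) are shown because these neighbours share a κB match yet differ in level. That of *Cxcl10* (chr5:92348890-92349139, minus strand) is shown for its mix of κB and interferon matches, and that of *Cxcl14* (chr13:56296552-56296801, minus strand) because its tissue difference differed between the subsets. Capitals mark the matches, and sequences run 5′ to 3′ on the strand of the gene.
Cxcl1: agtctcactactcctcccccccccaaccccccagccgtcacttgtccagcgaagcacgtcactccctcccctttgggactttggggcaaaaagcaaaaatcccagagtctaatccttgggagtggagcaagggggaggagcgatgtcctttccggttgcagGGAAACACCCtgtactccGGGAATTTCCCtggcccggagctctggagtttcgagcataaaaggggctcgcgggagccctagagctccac
Cxcl2: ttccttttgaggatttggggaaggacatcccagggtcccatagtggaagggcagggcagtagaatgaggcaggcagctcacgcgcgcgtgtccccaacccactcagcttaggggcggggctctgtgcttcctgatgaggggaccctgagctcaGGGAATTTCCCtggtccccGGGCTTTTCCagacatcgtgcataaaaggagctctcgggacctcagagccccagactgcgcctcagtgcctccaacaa
Cxcl10: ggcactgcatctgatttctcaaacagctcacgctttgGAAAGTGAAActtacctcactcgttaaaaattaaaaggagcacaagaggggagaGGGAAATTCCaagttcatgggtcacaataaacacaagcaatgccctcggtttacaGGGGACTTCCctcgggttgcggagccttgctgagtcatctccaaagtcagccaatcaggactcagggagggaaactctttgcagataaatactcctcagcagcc
Cxcl14: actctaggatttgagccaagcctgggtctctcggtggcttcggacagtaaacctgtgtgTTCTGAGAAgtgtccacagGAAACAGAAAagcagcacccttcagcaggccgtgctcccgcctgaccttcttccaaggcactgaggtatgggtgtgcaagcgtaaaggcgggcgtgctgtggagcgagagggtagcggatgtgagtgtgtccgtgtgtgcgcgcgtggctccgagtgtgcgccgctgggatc
*Cxcl1* and *Cxcl2* each hold 3 κB matches, of which 2 overlap on opposite strands in GGGAATTTCCC. *Cxcl10* holds 2 κB matches and 1 of the interferon response motif, and *Cxcl14* 1 of the interferon-γ motif and 1 of the interferon response motif. *Cxcl9*, *Cxcl12* and *Cxcl13* hold none of these letters in this window. A match describes the sequence and shows no binding.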

How the data were processed

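RNA of 30 libraries, 3 for each of 10 sorted populations, was amplified (Ovation kit) and read as single 50 base reads by the authors. The deposited files hold estimated counts and TPM per transcript, which the authors made with Trim Galore 0.4.0, FastQC 0.11.2 and kallisto 0.42.5 on mm10 (GRCm38), with the transcript set and strandedness not stated. Of 98492 transcripts 97116 matched GENCODE M21 and were summed to 32316 symbols. edgeR 4.0.16 (limma 3.58.1, R 4.3.3) was run with TMM, quasi-likelihood tests and Benjamini-Hochberg adjustment, on genes with 6 or more counts in 3 or more libraries of a model. FB averages are means of log levels. Tests were two-sided and checked on simulated data. Whether a replicate number marks the same mice in all populations is not stated. Of 30 libraries 19 were closest to one of their own number, with a mean r of 0.0111 over 135 such pairs, and the block was an alternative. Alternatives were DESeq2 1.42.0, RLE size factors, other filters, a replicate block, 1 model of all libraries, a fold threshold of 1, length-scaled counts, deposited TPM and leaving out each library, and, chosen after seeing the data, leaving out retained-intron transcripts and counting *Cxcl16* from 1 transcript. Named genes are the members, every gene of the lists (further CXC ligands, receptors, atypical receptors, proteases, interferon-γ, NF-κB, dissociation, lymphoid stroma and cell markers), given by counts with values for the called and most abundant, and the 3 genes closest to each member; values of some of these genes are not reported. Members and lists were chosen with earlier results of these data known. Intervals and floors cover counting error alone.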

Additional observations from a re-analysis of the deposited data

Results flagged for a closer look

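The difference between SI and colon was itself tested between Fgfr2+ and PDGFRα hi FB, and 2 genes stood out in that test. For *Cxcl13* the tissue difference of Fgfr2+ FB minus that of PDGFRα hi FB was 5.05 on the log2 scale (SE 1.01, adjusted p 0.0172). This call was lost with a replicate block (4.94, adjusted p 0.0553) and with length-scaled counts (5.01, 0.0613). It was also lost without replicate 3 of colonic Fgfr2+ FB (5.16, 0.0522) or of colonic PDGFRα hi FB (4.53, 0.0598). For *Cxcl14* it was 5.13 (SE 0.70, adjusted p 0.00106).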

How the results depend on the processing

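Over the alternatives that keep all libraries, 220 of 230 called values of single genes kept their direction and their side of the threshold, 10 lost the call and 0 changed sign. With each library left out in turn, 298 of 321 kept both and 23 lost the call. Of 746 values not called, 27 passed the threshold under such an alternative and 6 changed sign, and of 954 with a library left out, 12 and 35. The cause was not tested for any of these. The highest mean stayed in the same population for 10 of 10 genes with RLE size factors and for 9 with deposited TPM.

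DESeq2 called 4 genes between subsets, beside 4.44% of all genes, and 3 between tissues in pericytes, beside 2.59%. It called 3 between CD34+ and Fgfr2+ FB, beside 2.89%, 1 in CD81+ FB, beside 3.95%, and 5 over all colonic populations, beside 23.2%. The replicate block gave 1 gene between tissues in PDGFRα hi FB and 1 in the test of the tissue difference between subsets, where *Cxcl13* gave 4.94 at an adjusted p of 0.0553 (range 1.89e-05 to 0.0613). With that block *Cxcl11* between tissues in pericytes was 2.27 and *Cxcl13* in CD34+ FB -0.16, both changed in sign, and *Cxcl5* between pericytes and FB of colon was 2.02 at 0.0614 (range 0.00258 to 0.114). The model of all 30 libraries called 1 gene between subsets and 5 between tissues in pericytes, and gave -0.36 for *Cxcl11* between subsets. For the alternatives other than DESeq2 the share of all genes called is not given, so these counts have no background beside them. A fold threshold of 1 called 1 gene in CD81+ FB. Length-scaled counts gave 1 gene between tissues in PDGFRα hi FB and 1 in the test between subsets, and 0.26 for *Cxcl2* between tissues in PDGFRα hi FB. Without retained-intron transcripts 1 gene was called between tissues in PDGFRα hi FB, and *Cxcl1* was -0.35 in CD34+ FB and 0.03 in CD81+ FB. The cause was not tested.

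With each library left out, the number called ranged from 3 to 4 over colonic and 6 to 8 over SI populations, 0 to 2 for CD34+ FB, 0 to 1 for CD81+ FB and between subsets, 1 to 2 in the test of the tissue difference, 1 to 3 between tissues in PDGFRα hi FB and 3 to 4 in Fgfr2+ FB, and 0 to 0 in pericytes. It was 6 to 7 for pericytes against FB in SI, 2 to 4 in colon and 4 to 6 against SMC. The share of all genes called in these fits is not given, so the counts have no background of their own. Shares with all libraries stand beside each comparison above.

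Values of uncalled genes changed sign with a library left out, over these ranges. Between subsets *Cxcl11* ran from -0.28 to 0.39 and *Cxcl14* from -0.79 to 0.15. Between tissues in PDGFRα hi FB *Cxcl1* ran from -0.15 to 0.94, *Cxcl2* from -5.00 to 1.90, *Cxcl10* from -0.44 to 0.19 and *Cxcl12* from -0.02 to 0.24. In Fgfr2+ FB *Cxcl2* ran from -1.27 to 1.40, and in the test between subsets from -1.10 to 5.81. In pericytes *Cxcl11* ran from -3.05 to 3.83. Between pericytes and FB of SI *Cxcl9* ran from -1.71 to 0.13 and *Cxcl11* from -0.35 to 1.90, and in colon *Cxcl11* from -4.06 to 1.65. Against SMC *Cxcl2* ran from -1.05 to 1.26 and *Cxcl11* from -0.35 to 3.13. In CD34+ FB *Cxcl1* ran from -0.04 to 0.97, *Cxcl2* from -1.72 to 0.99 and *Cxcl13* from -0.25 to 0.58, and in CD81+ FB *Cxcl1* from -0.75 to 0.14. The cause was not tested.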
